A study of Caenorhabditis elegans with 3 samples.

Results

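Homeobox genes and nuclear receptor genes encode transcription factors, and the 13 genes considered here, gmeb-3 included, are those to which the authors assigned a peak of trimethylated lysine 4 of histone H3 (H3K4me3). They were chosen by name, with earlier results of these data known. The rule took every listed gene whose symbol starts with ceh- or nhr-, and added the single genes vab-7 and gmeb-3. They comprise 7 homeobox genes, 5 nuclear receptor genes and gmeb-3, out of 896 gene symbols in both peak tables. The F11 table lists 2 of them in 2 of its 95 peaks, and the F14' table lists all 13 in 13 of its 639 peaks.

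H3K4me3 was profiled by ChIP-seq, in which chromatin carrying the mark is pulled down with an antibody and its DNA is sequenced, in whole bodies of wild-type Caenorhabditis elegans. F11 is the generation reached after 11 generations on plates with the sulfonamide antibiotic sulfamethoxazole (SMX), with 6 days of exposure in each. F14' is a later generation of that line, kept on plates with K-medium and no drug, and described by the labels as the first unexposed progeny although numbered 14. The control grew on K-medium plates, and the labels give it no generation number, so exposure and time in culture cannot be told apart. Each group had 1 library of whole worms, so no value below could be checked against a replicate, no test was made, and intervals cover only counting error. In a whole-body library, a mark in few cells and a weak mark in many cells cannot be told apart. The control has no table of its own here, and the sources used here give no total depth. Inside peaks, F11 held 169447 tags and F14' held 1264155 tags.

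Homeobox proteins bind DNA through a helix-turn-helix domain and set body regions and cell fates in the embryo. Nuclear receptors bind DNA through zinc fingers and, in many cases, a small lipophilic ligand, and the family is greatly expanded in C. elegans. H3K4me3 usually gathers around the starts of active genes. Many C. elegans messages are trans-spliced, so an annotated start can lie downstream of the place where transcription begins.

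None of the 7 homeobox genes was listed in F11, and 1 nuclear receptor gene was. In F14' the homeobox genes made up 7 of the 65 protein-coding ceh- genes and vab-7 of the RefSeq table (10.8%, exact 95% binomial interval 4.44 to 20.9%). The nuclear receptors made up 6 of 269 protein-coding nhr- genes (2.23%, 0.823 to 4.79%), since a row named ZK1037.13 is nhr-291 in that table. Of all protein-coding genes, 2.52% were listed in F14' and 0.325% in F11. The nuclear receptor share thus lay near the share of all genes. The homeobox share was higher, with 7 genes, but vab-7 was included by name. The ceh- genes alone had 6 of 64 listed (9.38%, 3.52 to 19.3%). With 39 homeobox genes of other names, of which 1 was listed, the count was 8 of 104 (7.69%, 3.38 to 14.6%).

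**Figure D1:**
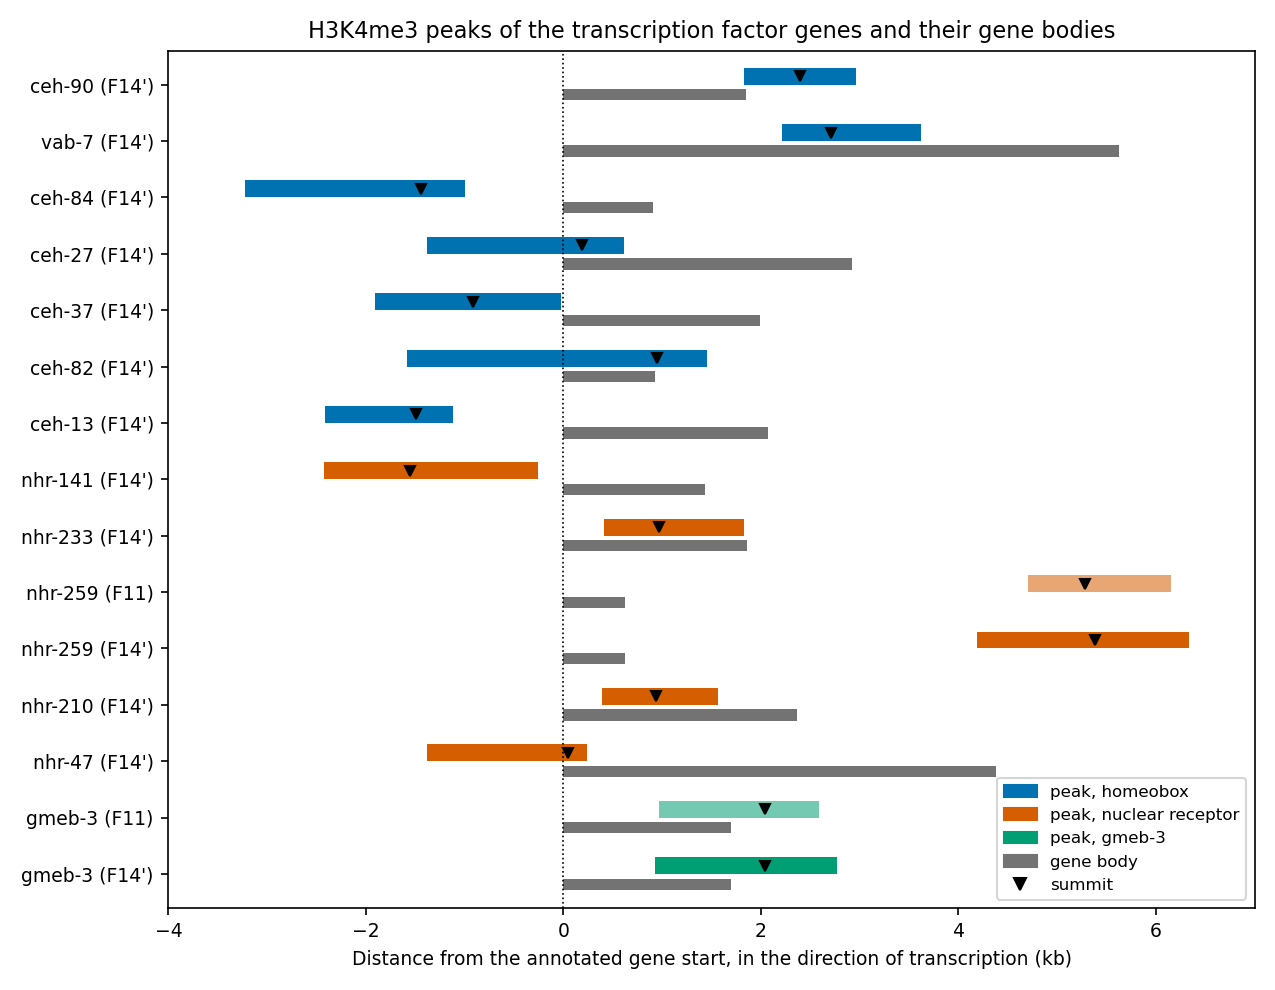
Peaks (coloured bars), summits (triangles) and gene bodies (grey bars) of the 13 genes, drawn by distance in kb from the annotated start in the direction of transcription; paler bars are F11. Only ceh-27, ceh-82 and nhr-47 have a peak that spans the start, and the nhr-259 peaks lie past the gene in both tables.

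The map of peaks and gene bodies shows that these peaks were spread around their genes. In F14', 4 of the 13 lay wholly upstream of the gene, 3 spanned its start, 3 lay inside it, 2 spanned its end alone and 1 lay beyond it. All F14' peaks, each taken with its nearest listed gene, were spread over the same positions. Of these, 28.3% lay wholly upstream, 15.02% inside the gene, 6.73% across its end alone and 14.1% beyond it. A span of the start by 3 of 13 peaks compares with 35.8% of all F14' peaks, each taken with its nearest listed gene. The authors' class of promoter, which covers peaks centred within 2 kb of a start on either side, was given to 9 of the 13. It was given to 60.1% of all F14' peaks with their nearest listed gene. The 13, however, were taken with their own gene even where another lay nearer. With every F14' peak counted once for each of its listed genes, 69.3% were promoter peaks and 40.3% spanned the start. Of the 9 promoter peaks among the 13, 3 spanned the start, against 57.8% of all F14' promoter peaks with their nearest listed gene. Not a base of the assigned gene was covered at 5 of the 13, against 42.4% of all F14' peaks.

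Among the homeobox genes with a known embryonic or neural role, ceh-13 is the labial-type Hox gene of the anterior body. Its peak (chromosome III, 7553177 to 7554474, build ce10) was 1298 bp wide and held 368 tags, or 284 tags per kb (exact 95% Poisson interval 255 to 314). It ended 1120 bp before the start, with its summit at -1489 bp (negative distances lie upstream of the start), on the side where the Hox gene lin-39 is the next protein-coding gene. With a fold of 1.74 over the background of the caller, it ranked 621 of 639 peaks by fold, with the lowest fold of the 13.

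The even-skipped homologue vab-7 acts in the posterior body and in motor neurons. Its peak (chromosome III, 10922502 to 10923907) was the only one of the 13 classed as intronic, and it lay wholly inside the gene with its summit 2709 bp after the start. It was 1406 bp wide and held 473 tags, or 336 tags per kb (307 to 368), at a fold of 2.64. The start of vab-7 itself, 2216 bp before the nearer edge of the peak, had no peak in either table.

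The NK-2 class gene ceh-27 had a promoter peak (chromosome V, 11664068 to 11666063) that spanned its start, with a summit 190 bp after it. The peak was 1996 bp wide and held 607 tags, or 304 tags per kb (280 to 329), at a fold of 2.14. It was also listed with the noncoding RNA gene F46F3.22, whose start lay 6 bp from the peak centre against 386 bp for ceh-27. By distance alone, the nearer gene of that peak was thus the noncoding one.

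The Otx-type gene ceh-37, which specifies an olfactory neuron, had a promoter peak (chromosome X, 14199682 to 14201563) that stopped 22 bp before the start. It was 1882 bp wide and held 526 tags, or 279 tags per kb (256 to 304), at a fold of 1.98. The noncoding RNA genes C37E2.9 (267 bp) and C37E2.8 (-326 bp) had starts nearer to its centre than ceh-37 (-962 bp).

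The peak of ceh-90 lay 44.6 kb away on the same chromosome (X, 14153930 to 14155059), and each of these peaks was the other's closest neighbour in the table. The ceh-90 peak was the narrowest of the 13, at 1130 bp. It held 383 tags, or 339 tags per kb (306 to 375), and its fold of 4.27 was the highest of the homeobox genes, at rank 117 of 639. It touched only the last 15 bp of the gene, and its summit lay 546 bp past the gene's end. The next protein-coding gene on that side is akt-2, a kinase gene of the insulin pathway, which neither table lists. The peak's distance to akt-2 was not measured, because the gene table follows another build.

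The last 2 homeobox genes, ceh-82 and ceh-84, lie towards the same end of chromosome II with their peaks 268.1 kb apart. The ceh-82 peak (1730693 to 1733737) was the widest of the 13, at 3045 bp, and covered the whole gene of 924 bp. Its centre lay 66 bp from the start, the shortest distance of the 13, but its summit lay 952 bp after the start and 29 bp past the gene's end. It held 921 tags, or 302 tags per kb (283 to 323), at a fold of 1.93. In gene order ceh-82 sits between ceh-81 and ceh-83, which neither table lists. The ceh-84 peak (2001817 to 2004052) was of the upstream class and ended 992 bp before the start. It was 2236 bp wide and held 602 tags, or 269 tags per kb (248 to 292), at a fold of 2.27. The same peak was listed with math-32 and F59H6.2, pseudogenes with the peak centre at -7720 and -16724 bp from their starts.

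The nuclear receptor genes listed in F14' are little studied, and no role is given for them here. Receptors with known roles in fat metabolism (nhr-49), in the response to foreign compounds (nhr-8) and in moulting (nhr-23 and nhr-25) were listed in neither table. Only 2.23% of protein-coding nhr- genes were listed in F14' and 0.372% in F11, so the absence of these few says little about them.

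The strongest nuclear receptor peak was that of nhr-141 (chromosome V, 7442831 to 7445002), with 828 tags over 2172 bp, or 381 tags per kb (356 to 408). Its fold was 3.10, at rank 170 of 639, and its score, -10 times the base-10 logarithm of p, was 376. The peak was of the promoter class and ended 253 bp before the start.

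The peaks of nhr-233 and nhr-210 lay wholly inside their genes. The nhr-233 peak (chromosome V, 16569491 to 16570906) covered 76.1% of the gene, began 413 bp after the start and held 429 tags, or 303 tags per kb (275 to 333), at a fold of 2.19. The nhr-210 peak (chromosome V, 517980 to 519152) covered 49.7% of the gene, began 394 bp after the start and held 329 tags, or 280 tags per kb (251 to 312), at a fold of 1.96. Its score of 30.7 was the lowest of the 13, at rank 626 of 639. Both were classed as promoter peaks, although neither reached the start of its gene.

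Of the nuclear receptors, only nhr-47 had a peak across its start (chromosome V, 5504053 to 5505679), with the summit 44 bp after it, the closest of the 13. It was 1627 bp wide and held 439 tags, or 270 tags per kb (245 to 296), at a fold of 1.89. The same peak was listed with the DnaJ co-chaperone gene dnj-19, whose start lay 37 bp from the peak centre against 570 bp for nhr-47. The noncoding RNA genes C24G6.12 (165 bp) and C24G6.10 (379 bp) were listed with it as well, so nhr-47 was the farthest of the genes on its peak.

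With nhr-141, nhr-233, nhr-210 and nhr-47, 4 of the 5 nuclear receptor peaks lay on chromosome V, against 24.7% of all F14' peaks. Counted with ZK1037.13, or nhr-291, 5 of the 6 listed nhr- genes lay on it. That chromosome also carries 167 of the 269 protein-coding nhr- genes (62.1%). The homeobox peaks were spread over chromosomes II, III, V and X, with 1 of 7 on chromosome V. Of the 65 protein-coding ceh- genes and vab-7, 12 (18.5%) lie on chromosome V. In the middle of a chromosome, between 33.3 and 66.7% of its length, lay 3 of the 13 peaks, those of ceh-13, ceh-27 and nhr-141, against 17.4% of all F14' peaks.

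**Figure D2:**
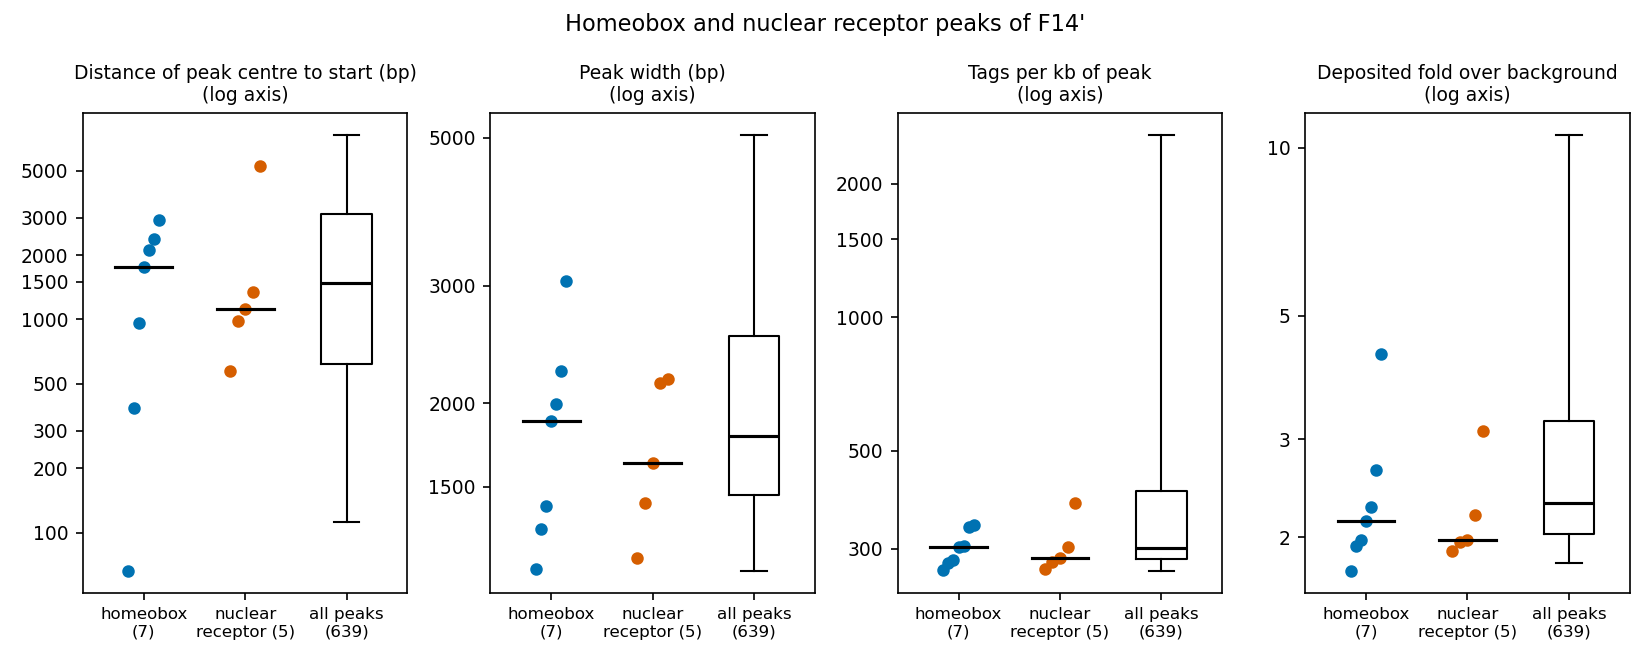
Distance from peak centre to start (bp), width (bp), tags per kb and deposited fold, on log axes, for the 7 homeobox peaks, the 5 nuclear receptor peaks and all 639 F14' peaks (box: quartiles; whiskers: percentiles 5 and 95; black bars: medians). For all peaks the distance is to the start of the nearest listed gene. The families overlap in every measure, and the highest fold in either is 4.27.

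Set against each other, homeobox and nuclear receptor peaks overlapped in every measure. The median distance of the peak centre from the start was 1769 bp in homeobox genes (66 to 2918 bp) and 1121 bp in nuclear receptor genes (570 to 5261 bp). For all F14' peaks it was 1486 bp to the nearest listed gene. It was 1079 bp with each peak counted once for each of its listed genes, the measure more like that of the families. The median width was 1882 bp in homeobox genes (1130 to 3045 bp) and 1627 bp in nuclear receptor genes (1173 to 2172 bp), against 1788 bp for all. Tags per kb had a median of 302 in homeobox genes (269 to 339) and 286 in nuclear receptor genes (270 to 381), against 301 for all. The median fold was 2.14 in homeobox genes (1.74 to 4.27) and 1.98 in nuclear receptor genes (1.89 to 3.10), against 2.30 for all. In each of these measures the median of either family lay inside the range of the other.

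By class, 4 of 7 homeobox peaks (57.1%, exact 95% interval 18.4 to 90.1%) and 4 of 5 nuclear receptor peaks (80.0%, 28.4 to 99.5%) were promoter peaks. The remaining homeobox peaks were 1 upstream (ceh-84), 1 intronic (vab-7) and 1 intergenic (ceh-90), and the remaining nuclear receptor peak was intergenic (nhr-259). Left out of the family comparison by the name rule is the peak of ZK1037.13, or nhr-291. That peak was intergenic, with 333 tags per kb and a fold of 3.42. Homeobox peaks were centred upstream of the start in 5 of 7 genes, and nuclear receptor peaks in 2 of 5. Of all F14' peaks with their nearest listed gene, 292 of 639 were centred upstream. With each peak counted once for each of its listed genes, 503 of 1025 were. The intervals of the promoter shares overlap widely. Peaks of 1 library are not replicates, so a difference in class between the families was not tested. Of the homeobox peaks 3 of 7 were listed with further genes, and of the nuclear receptor peaks 1 of 5, against 25.5% of all F14' peaks.

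**Figure D3:**
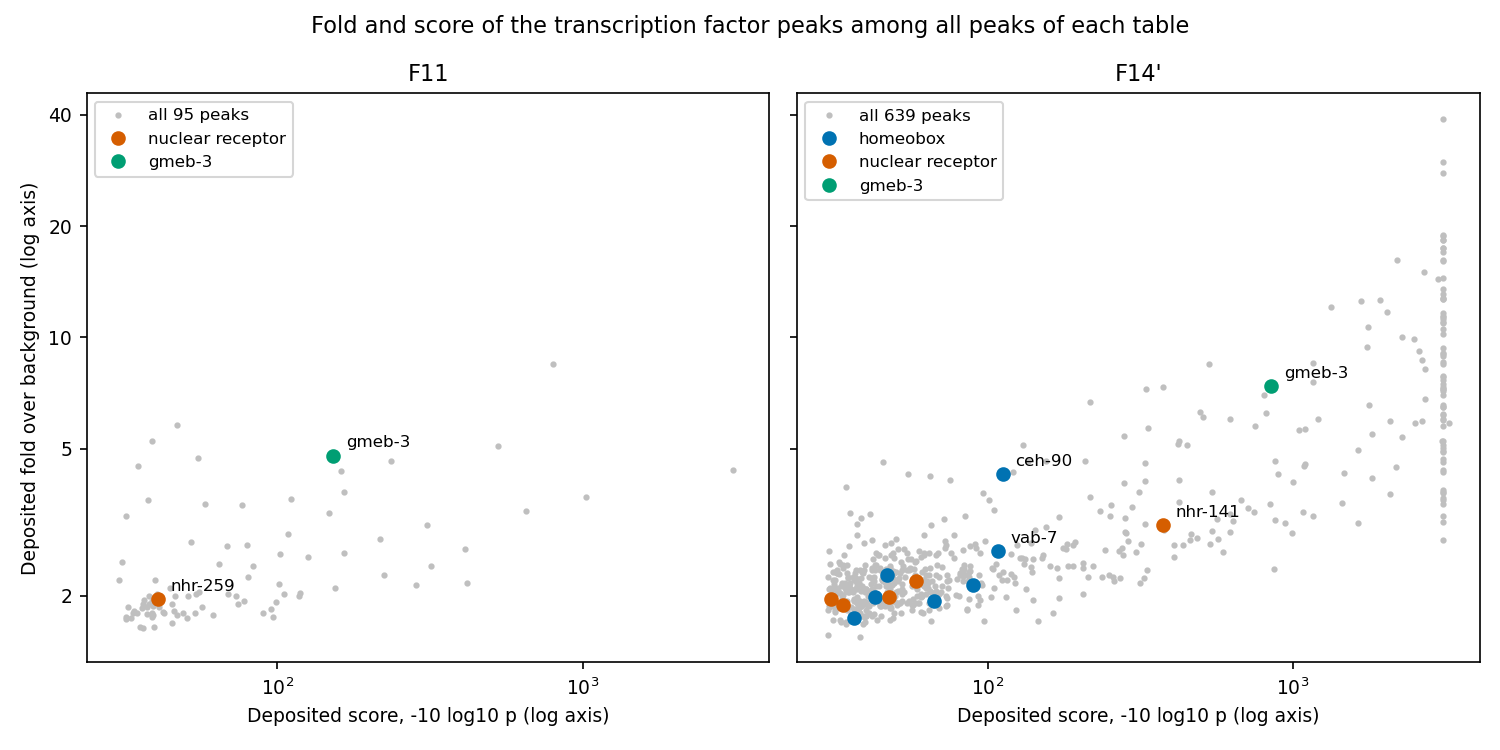
Deposited fold against deposited score (-10 log10 p), both on log axes, with every peak of F11 (left, 95 peaks) and F14' (right, 639 peaks) in grey. In F14' gmeb-3, nhr-141, ceh-90 and vab-7 have scores of at least 100, and the other 9 genes have lower ones.

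Within the F14' table the 13 peaks had a median of 302 tags per kb, against 301 for all peaks. A fold of at least 2 was reached by 7 of 13, against 78.4% of all F14' peaks, and the 6 below it were ceh-37, ceh-82, ceh-13, nhr-259, nhr-210 and nhr-47. A score of at least 100 was reached by 4 of 13, namely gmeb-3, nhr-141, ceh-90 and vab-7, against 37.4% of all F14' peaks. In tags per kb gmeb-3 (500, interval 468 to 533) stood above all others, and nhr-141 came next, with an interval that overlapped those of ceh-90 and vab-7 alone. The other 9 genes lay between 269 and 304 tags per kb, and neighbours in that order did not differ beyond counting error.

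Whole-peak tags were also set against the background computed from each peak's tags and p, which is the Poisson mean that gives the deposited p. The 13 F14' peaks held 1.18 to 2.06 times that background, with a median of 1.21, against a median of 1.23 over the 571 F14' peaks with a score under the usual ceiling of 3100. At nhr-47 the excess over background was the smallest (1.18 times) and at gmeb-3 the largest (2.06 times). The deposited fold may be taken at another scale than the whole peak, and whether the control library set the F14' background was not tested.

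Both tables listed 2 of the 13 genes, gmeb-3 and nhr-259. Since all 13 were listed in F14', this count stands beside the 6.76% of the protein-coding genes of the F14' table that were also listed in F11. However, gmeb-3 was added as a single gene with earlier results known. Without it, 0 of the 7 homeobox genes and 1 of the 5 nuclear receptor genes were listed in both. The F11 and F14' tables are labelled as set against the same control library, so these listings cannot be taken as independent of each other. Whether that library set the F14' background was not tested.

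The gene gmeb-3 is named after the glucocorticoid modulatory element binding proteins of mammals and is neither a homeobox nor a nuclear receptor gene. Its peak held 542 tags over 1622 bp in F11 (chromosome III, 3769497 to 3771118) and 924 tags over 1848 bp in F14' (3769456 to 3771303). These are 334 tags per kb in F11 (307 to 364) and 500 tags per kb in F14' (468 to 533), intervals that do not overlap. The F11 to F14' ratio of tags per kb was 0.668 (exact 95% interval 0.600 to 0.744), the 4th lowest of 54 overlapping pairs of peaks, whose median was 0.972. Its fold was 4.79 in F11, at rank 5 of 95, and 7.39 in F14', at rank 54 of 639. The computed background was 232 tags per kb in F11 and 243 tags per kb in F14', a smaller gap than that of the tags. Whole-peak tags were 1.44 times that background in F11 and 2.06 times in F14'. Tags were not scaled to library depth, which is unknown.

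The summits of both gmeb-3 peaks were 4 bp apart, at 2039 bp after the start in F11 and 2043 bp in F14'. Both lay past the end of the gene, by 337 bp in F11 and 341 bp in F14'. The peak covered 43.2% of the gene in F11 and 45.6% in F14', from its 3' end, and was classed as a promoter peak in both. The next protein-coding gene beyond that end is lec-4, a galectin gene, which neither table lists.

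Near nhr-259 tags per kb differed by no more than counting error. The F11 peak (chromosome I, 11441477 to 11442920) held 450 tags over 1444 bp and the F14' peak (11440961 to 11443104) held 614 tags over 2144 bp. These are 312 tags per kb in F11 (284 to 342) and 286 tags per kb in F14' (264 to 310), with overlapping intervals. The ratio of F11 to F14' was 1.09 (0.961 to 1.23), and the folds were 1.96 in F11 and 1.98 in F14'. Both peaks were intergenic, and they began 4080 bp (F11) and 3564 bp (F14') past the end of nhr-259, a gene of 627 bp. The F11 peak lay wholly inside the F14' one, and the summits were 102 bp apart. The next protein-coding gene on that side is C27C7.1, and the assignment to nhr-259 rests on the authors' annotation.

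**Figure D4:**
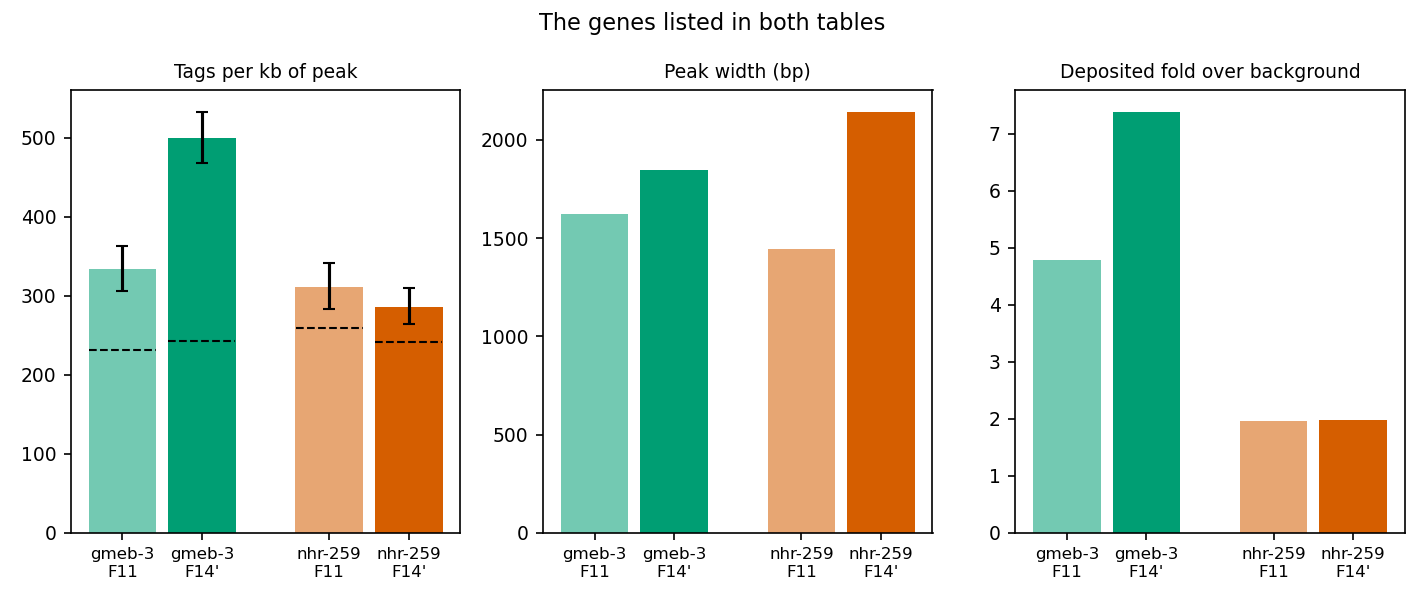
Tags per kb (error bars: exact 95% Poisson intervals; dashed lines: background computed from tags and p), width and deposited fold of gmeb-3 and nhr-259, F11 (paler) beside F14'. For gmeb-3 tags per kb and fold are lower in F11 than in F14', and for nhr-259 the intervals overlap.

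In the authors' deposited table both F11 peaks, gmeb-3 and nhr-259, carry an FDR (false discovery rate) of 100%. An FDR of 100% was given to 94 of the 95 F11 peaks. For the 13 F14' peaks no FDR is given. Whether both peak lists were called in the same way was not tested, so their counts and folds may not be alike. By intervals, both F11 peaks overlapped an F14' peak, against 55.8% of all F11 peaks. In the other direction 2 of the 13 F14' peaks overlapped an F11 peak, against 8.45% of all F14' peaks. Without gmeb-3, which was added as a single gene, only the nhr-259 peak did so. The remaining 11 had no F11 peak within 6520 bp, which was the distance at ceh-82, followed by 8144 bp at nhr-47. The F11 tags under the 11 unlisted genes are not in the table, so their level there was not measured.

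Related genes outside these names were listed at about the share of all genes or not at all. Of 39 homeobox genes without the ceh- prefix that the gene table holds, 1 (2.56%) was listed in F14', against 2.52% of all protein-coding genes, and 0 in F11. It was nob-1, a posterior Hox gene, with 288 tags per kb in a promoter peak 143 bp from its start (fold 1.88) and 312 tags per kb in a peak centred at -19112 bp (fold 1.85). Of 5 nuclear receptors without the nhr- prefix, among them the steroid receptor gene daf-12, 0 were listed in either table. The same holds for 7 genes of receptor cofactors and ligand synthesis, such as mdt-15 and daf-9, and for 2 further genes of the GMEB and SAND-domain list. The row of ZK1037.13, or nhr-291, was an intergenic peak 2180 bp past its start with 333 tags per kb and a fold of 3.42, a fold above that of all 5 nuclear receptors listed by name.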

How the data were processed

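Build ce10, MACS 1.4.0rc2 and Bowtie2 2.1.0 are listed, per the submitters' processing notes. Each sample has its own peak list. Per the file headers, a peak has tag counts, a fold ratio, a score (-10 times the base-10 logarithm of p), a summit, a gene, a class and a distance to the start. The deposited tag counts are raw, and the F11 table adds the authors' FDR in percent. Rows were collapsed to unique intervals for counts of all peaks, and each peak was then taken with its nearest listed gene. Positions are ce10, and the peak's edges and summit were measured from the listed start. Tags per kb are tags divided by width, with exact Poisson intervals. Gene names, gene families and neighbours in gene order come from a RefSeq gene table of assembly WBcel235, with 12 of 13 genes matched by accession and all by symbol. No sequence is shown, since no sequence table was used here. All genes that meet the name rule are named. The genes and lists were chosen with earlier results of these data known. Alternatives were stricter scores, folds and distances, the nearest gene per peak, other overlap rules and an FDR limit. Code was tested on simulated data. Tools were scipy 1.17.1, pandas 2.3.3, numpy 2.4.6 and matplotlib 3.10.9 in Python 3.11.15.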

Additional observations from a re-analysis of the deposited data

How the results depend on the processing

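Of 62 alternative settings, 37 left a value within 1.5 times of a count or within the standard deviation between peaks, and 25 moved it. The 37 include every setting for homeobox genes listed in F11, whose count of 0 could not change under a stricter limit. No value is a signed difference, but the order of the homeobox and nuclear receptor medians depended on the setting. Homeobox genes listed in F14' fell in number to 4 at a score of at least 50, 2 at 100, 4 at a fold of at least 2 and 4 within 2 kb of the start. Nuclear receptor genes fell to 2, 1 and 2 in F14' at those scores and fold. The 1 nuclear receptor of F11 was lost at each of these 3 settings and within 2 or 3 kb, which left 0, and 0 of the 2 F11 genes kept an FDR of at most 5%. Promoter peaks of homeobox genes numbered 2 at a score of at least 50, 0 at 100 and 2 with the nearest gene per peak, and those of nuclear receptors 2 and 1 at those scores. At a score of at least 100, the medians became 338 tags per kb and a fold of 3.46 in homeobox genes, and 381 tags per kb, a fold of 3.10 and a width of 2172 bp in nuclear receptors. At a score of at least 50, the medians of nuclear receptors were 342 tags per kb, a fold of 2.65 and a width of 1794 bp. Those of homeobox genes were 320 tags per kb, a fold of 2.39 and a width of 1701 bp. Each was thus lower in homeobox genes, whereas over all listed genes each was higher. With the nearest gene per peak, the median width was 1406 bp in homeobox genes and 1780 bp in nuclear receptors. The median distance stayed longer in homeobox genes at each setting. Stricter limits leave fewer and stronger peaks by construction. No paired analysis was possible because each group has 1 library.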

Other observations

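A few genes of other transcription factor families were listed as well. Over 10 families taken by name prefix and found in the gene table, 4 of 119 protein-coding genes (3.36%) had an F14' peak, against 2.52% of all protein-coding genes, and 0 had an F11 peak. They were zip-2, a bZIP factor of pathogen response (316 tags per kb, fold 2.74), the HMG box gene hmg-1.1 (298 tags per kb, fold 2.57) and the T-box genes tbx-41 (279 tags per kb, fold 2.1) and tbx-37 (284 tags per kb, fold 2.08). All 4 peaks were promoter peaks centred within 356 bp of the start, nearer than 12 of the 13 homeobox, nuclear receptor and gmeb-3 peaks of F14'. By family, 2 of 19 tbx- genes (10.5%), 1 of 9 hmg- genes (11.1%) and 1 of 12 zip- genes (8.33%) were listed in F14'. No gene of the hlh-, elt-, fkh-, sox-, atf-, ztf- or ets- families was listed in either table.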
